A study of Mus musculus with 3 samples.

Results

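The genes described here are 10 genes used as readouts of the endothelial-to-mesenchymal transition: the transcription factors Snai1, Snai2, Twist1, Zeb1 and Zeb2, the contractile genes Acta2, Tagln and Cnn1, the intermediate filament gene Vim and the cadherin gene Cdh2. They were taken by symbol from the gene tables of the series, and 8 of the 10 were among the 18287 listed genes. Twist1 and Cnn1 were not listed and have no value here. The study sequenced mRNA of purchased mouse aorta endothelial cells, the lining cells of that vessel, with 1 library in each of 3 groups. The control cells received neither agent. The second group received glucose oxidase (5 mU/mL, 30 min), which generates hydrogen peroxide while it oxidizes glucose. The third received the same glucose oxidase dose and ethyl-2-hydroxybenzylamine (Et2HOBA), a scavenger of isolevuglandins (reactive lipid products of oxidative stress), at 0.2 mM for 24 h. Values of the 3 libraries are given below in this order: control, glucose oxidase alone, both agents. The labels give neither the order of these exposures nor the age, sex or strain of the animals. There was no library with Et2HOBA alone among those used here.

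In the endothelial-to-mesenchymal transition, endothelial cells lose junctions and endothelial gene expression and take on features of smooth muscle cells or fibroblasts. SNAI1 and SNAI2 (Snail and Slug), TWIST1, ZEB1 and ZEB2 are transcription factors that bind E-box sequences and are known for repressing junction genes during such transitions. Acta2 (smooth muscle alpha-actin), Tagln (transgelin, SM22) and Cnn1 (calponin) are targets of serum response factor and mark a contractile program. Vim (vimentin) and Cdh2 (N-cadherin) are classed as mesenchymal markers in epithelial cells, but cultured endothelial cells also make both proteins.

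Promoter windows from RefSeq (GRCm38.p6) were found for 6 of the 10 genes and used to look for short motifs in the 250 bases before the start. Those of Snai1 and of the outermost Zeb2 start are shown because Snai1 and Zeb2 are the listed transcription factors whose transcripts differed least and most from control with both agents (with glucose oxidase alone Snai2 differed least). Each is written 5′ to 3′ on the gene's strand, with motif matches in capitals. The Snai1 window is chr2:167537945-167538194 (plus strand) and the Zeb2 window is chr2:45117443-45117692 (minus strand).
Snai1: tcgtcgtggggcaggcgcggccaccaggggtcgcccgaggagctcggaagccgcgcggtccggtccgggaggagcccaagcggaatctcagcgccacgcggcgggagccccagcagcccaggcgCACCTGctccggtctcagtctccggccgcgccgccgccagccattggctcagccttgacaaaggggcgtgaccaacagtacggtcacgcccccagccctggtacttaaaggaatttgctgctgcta
Zeb2: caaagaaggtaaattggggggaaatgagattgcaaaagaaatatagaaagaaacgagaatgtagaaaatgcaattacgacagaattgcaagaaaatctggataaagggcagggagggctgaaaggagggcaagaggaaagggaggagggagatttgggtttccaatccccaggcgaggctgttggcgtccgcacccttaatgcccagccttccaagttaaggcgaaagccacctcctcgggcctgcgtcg

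The motifs searched on both strands were the E-box CAGGTG, the AP-1 element TGANTCA, the antioxidant response element TGACNNNGC, the ATF4 element TGATGNAA, the TATA box TATAAA and the CArG box, the binding site of serum response factor. The Snai1 window held 1 E-box, read on the minus strand at bases 126 to 121 before the start, and 17.3% of all 32526 windows of this length held one. Zeb2 had 4 windows, and 3 of them, the outermost included, held none of the motifs. Counted from the outermost, windows 2 and 3 overlap for most of their length, and windows 2 to 4 overlap annotated Zeb2 exons. Window 4, at the start farthest into the gene, had 2 AP-1 elements, at bases 189 to 183 and 132 to 126 before the start. Of all single windows 6.73% held at least 1, a share that is not corrected for searching 4 windows in 1 gene. These stretches of the minus strand, at chr2:45110452-45110474 and chr2:45110395-45110417, are given with the elements in capitals.
Zeb2 AP-1 first: cctagcctTGAGTCAagcagtct
Zeb2 AP-1 second: aggagttaTGACTCAttttgaag
The exact CArG box (CCWWWWWWGG, where W is A or T) was in 1.48% of windows and in none of the members' windows searched. Forms with a mismatch were not searched. The Acta2 window holds CCCTATATGG and CCTTGTTTGG, each with 1 base outside that pattern, and no window was used for Tagln. The lack of an exact match is thus not a lack of serum response factor sites. A match is a description of the letters, and the counts cannot be assigned to single starts.

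Over the listed genes the libraries held 35005089 to 40212212 reads, and no listed gene had fewer than 5 reads in all 3. The counts with glucose oxidase alone were worked back from deposited differences, as described under processing. With 1 library per group there was no spread between replicates, no test between conditions was possible, and none of the differences below has a replicate check. Intervals at 95% are exact (Poisson for a count, Clopper-Pearson for a fold) and cover counting error only, so they compare libraries and not conditions. Fold differences are ratios of normalized counts. Log2 ratios are of the normalized count plus 10 and understate the change of low genes. A gene is called past the limit when its log2 ratio reaches 1 in either direction. In these bulk samples, fewer cells of a type and less RNA per cell cannot be told apart.

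The 8 listed genes covered a wide range of levels, and this range was similar in the 3 libraries. Per kb of annotated exon, Vim stood at 19065 normalized reads in control, 19185 with glucose oxidase alone and 15865 with both agents, at or above the percentile of 99.6 among listed genes in each. Vim alone took 0.259% of control reads. Snai2 followed at 520, 555 and 718 normalized reads per kb in the same order of libraries, then Snai1 at 442, 406 and 466. Cdh2 (282, 304 and 336), Zeb1 (238, 275 and 396) and Zeb2 (78.7, 149 and 204) came next. Acta2 and Tagln lay far below, at 3.53 to 8.49 and 1.94 to 4.69 normalized reads per kb.

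In every library the counting intervals of neighbours in this order were separate, except those of Acta2 and Tagln, which overlapped. Zeb1 was below Cdh2 in control and with glucose oxidase alone and above it with both agents. The order in the middle depended on the length used, an alternative chosen after the data were examined. Per kb of the longest annotated transcript, Cdh2 (470 in control) and Zeb1 (421) moved close to Snai1 (442), and Zeb1, at 701 with both agents, came close to Snai2 at 718. Vim and Snai2 stayed the highest, and Zeb2 stayed at rank 6 of the 8, in each library under both lengths.

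**Figure D1:**
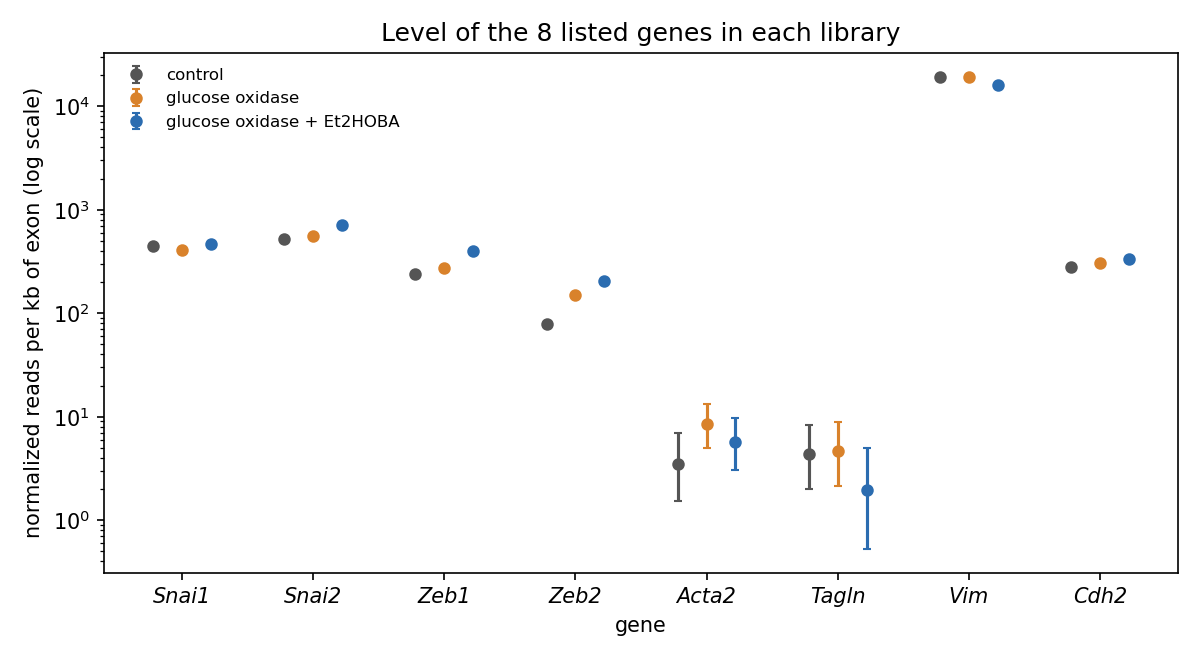
Normalized reads per kb of annotated exon (log axis) for the 8 listed genes in the 3 libraries (control, glucose oxidase, both agents), 1 point per library, with bars for the 95% Poisson interval of the count (smaller than the point for most genes). Vim lies near 19065 in control, the transcription factors and Cdh2 between 78.7 and 718, and Acta2 and Tagln below 10.

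Of the transcription factors, Zeb2 was the one whose library values differed most. Zeb2 (ENSMUSG00000026872.18, chromosome 2, 44983632 to 45117395, minus strand) had 1619, 2867 and 4235 reads. Control was the lowest library and the one given both agents the highest, and the counting intervals of the 3 counts did not overlap. The level with glucose oxidase alone was 1.89-fold that of control (95% interval 1.78 to 2.01), a log2 ratio of 0.92, just inside the limit. With both agents it was 2.60-fold that of control (2.45 to 2.75), a log2 ratio of 1.37, and Zeb2 was the only listed member past the limit. In that comparison 8.25% of listed genes and 9.86% of protein-coding genes had a ratio as far from 0 or farther. Between the treated libraries Zeb2 was 1.37-fold higher with both agents (1.31 to 1.44). The antisense gene Zeb2os, which overlaps it, had 18, 32 and 21 reads.

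Zeb1, the paralog of Zeb2, differed in the same direction and less. Zeb1 (ENSMUSG00000024238.15, chromosome 18, 5591860 to 5775467, plus strand) had 2520, 2724 and 4225 reads. The first 2 counts lay close together and the library given both agents stood above them. The level was 1.16-fold that of control with glucose oxidase alone (1.09 to 1.22) and 1.67-fold with both agents (1.59 to 1.75). The log2 ratios were 0.21 and 0.73, both within the limit. Between the treated libraries the fold was 1.44 (1.37 to 1.51), the largest among the members with at least 30 reads in every library. Per kb of exon, the Zeb2 level was 0.331 of the Zeb1 level in control (0.311 to 0.352), 0.542 with glucose oxidase alone (0.514 to 0.571) and 0.516 with both agents (0.494 to 0.539). The ratio of the paralogs was thus lowest in control, and the intervals of the treated libraries overlapped. Its size depends on the lengths used, which the intervals do not cover. Per kb of the longest transcript, Zeb2 stood at 172, 325 and 447 and Zeb1 at 421, 486 and 701.

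The Snail family differed little with glucose oxidase alone. Snai1 (ENSMUSG00000042821.7, chromosome 2, 167538195 to 167542814, plus strand) had 740, 635 and 784 reads. Its folds against control, 0.917 (0.824 to 1.02) with glucose oxidase alone and 1.05 (0.951 to 1.17) with both agents, both had intervals that include 1. Only between the treated libraries did the interval exclude 1, at 1.15-fold higher with both agents (1.03 to 1.28). Snai2 (ENSMUSG00000022676.7, chromosome 16, 14705852 to 14709385, plus strand) had 1084, 1082 and 1508 reads, so that control and glucose oxidase held nearly the same number and the library with both agents stood apart. The fold against control was 1.07 with glucose oxidase alone (0.980 to 1.16) and 1.38 with both agents (1.28 to 1.50), and between the treated libraries it was 1.30 (1.20 to 1.40). Per kb, Snai2 was 1.17 times Snai1 in control (1.07 to 1.29), 1.37 times with glucose oxidase alone (1.24 to 1.51) and 1.54 times with both agents (1.41 to 1.68).

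The contractile genes were close to the detection limit in all 3 libraries. Acta2 (ENSMUSG00000035783.9, chromosome 19, 34241090 to 34255590, minus strand) had 8, 18 and 13 reads. The Poisson intervals of these counts, 3.45 to 15.8, 10.7 to 28.4 and 6.92 to 22.2, overlap. The fold of glucose oxidase against control was 2.41, with an interval of 0.995 to 6.39, and the log2 ratio was 0.69. With both agents the fold against control was 1.61 (0.620 to 4.49). Actb, the cytoplasmic actin gene, had 72397, 72482 and 99902 reads. Per kb it exceeded Acta2 by 7418 times in control (3765 to 17183), 3301 times with glucose oxidase alone (2088 to 5570) and 6299 times with both agents (3684 to 11831).

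Tagln (ENSMUSG00000032085.5, chromosome 9, 45929619 to 45936058, minus strand) had 9, 9 and 4 reads. Its fold with both agents against control was 0.442, with an interval of 0.0994 to 1.58, and a difference was not detectable at this depth. Pcsk7, annotated on the other strand over part of Tagln, had 1140, 800 and 716 reads. The library kit marks strand, but whether the counting used strand is not given in the sources used here, so the few Tagln reads are uncertain. Both contractile genes were thus near 0 in each library, and at this depth neither could be placed above or below control.

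Vim, at the other end of the range, had 93316, 87841 and 78155 reads (ENSMUSG00000026728.9, chromosome 2, 13573927 to 13582826, plus strand). After normalization the control and glucose oxidase libraries were nearly equal, with a fold of 1.01 (0.997 to 1.02). With both agents the level was 0.832 of control (0.824 to 0.840) and 0.827 of glucose oxidase (0.819 to 0.835). These intervals are narrow because the counts are high and say nothing of the spread between cultures. The log2 ratio of -0.26 against control was nearer to 0 than that of 64.3% of listed genes.

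Cdh2 (ENSMUSG00000024304.14, chromosome 18, 16588877 to 16809246, minus strand) had 2348, 2371 and 2817 reads. It was 1.08-fold control with glucose oxidase alone (1.02 to 1.14) and 1.19-fold with both agents (1.13 to 1.26). Both log2 ratios, 0.11 and 0.25, were small, and 80.3% and 65.9% of listed genes lay as far from 0 or farther. Cdh5, which encodes VE-cadherin of endothelial junctions, had 55360, 45034 and 63665 reads. Per kb, Cdh5 exceeded Cdh2 by 45.2 times in control (43.4 to 47.2), 36.5 times with glucose oxidase alone (35.0 to 38.0) and 43.4 times with both agents (41.8 to 45.1). The ratio was lower with glucose oxidase alone than in either of the other libraries, and Cdh5 remained the far more abundant cadherin transcript in each of the 3. The size of this ratio also depends on the lengths used, which its intervals do not cover. Cdh2 in control stood at 282 per kb of exon and at 470 per kb of its longest transcript.

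The question of each comparison is whether the genes of this set differed between the libraries more than genes at large. With glucose oxidase alone against control, 0 of the 8 listed genes passed the limit in either direction, beside 12.7% of all listed genes (4.07% higher, 8.60% lower) and 9.30% of protein-coding genes. With both agents against control 1 of 8 passed (Zeb2, higher), beside 14.7% (6.66% higher, 8.04% lower) and 16.6% of protein-coding genes. Between the treated libraries 0 of 8 passed, beside 8.55% and 3.32%. With 8 genes these counts are near what the background shares give. The median log2 ratio of the 8 was 0.10, 0.30 and 0.17 in these comparisons, where the medians over all listed genes lay within 0.01 of 0. Under total-count scaling the median of all genes moved to -0.13 with both agents against control, and the median of the 8 genes to 0.19.

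The comparisons against control share the control library, so their values are given side by side and not as separate evidence. By counting interval, 3 genes (Zeb1, Zeb2 and Cdh2) lay above control with glucose oxidase alone and 5 could not be placed. How many of all listed genes were placed in this way was not counted. At this depth even the 1.08-fold of Cdh2 was placed, and whether the counts in this paragraph are particular to the members was not tested. With both agents 4 lay above control (Snai2, Zeb1, Zeb2 and Cdh2), 1 below (Vim), and Snai1, Acta2 and Tagln could not be placed. Between the treated libraries Snai1, Snai2, Zeb1, Zeb2 and Cdh2 were higher with both agents and Vim was lower. In that last comparison the listed transcription factors and Cdh2 thus lay on one side and Vim on the other. These differences were small beside genes at large. The share of listed genes as far from 0 or farther ran from 23.9% for Zeb1 to 67.5% for Cdh2, with 46.1% for Vim. The smallest of these differences depended on the scaling. With total-count scaling the log2 ratio there was 0.10 for Snai1 (from 0.20) and 0.05 for Cdh2 (from 0.14). With glucose oxidase alone against control Cdh2 was also at 0.05 (from 0.11). Counting intervals were not recomputed under that scaling.

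**Figure D2:**
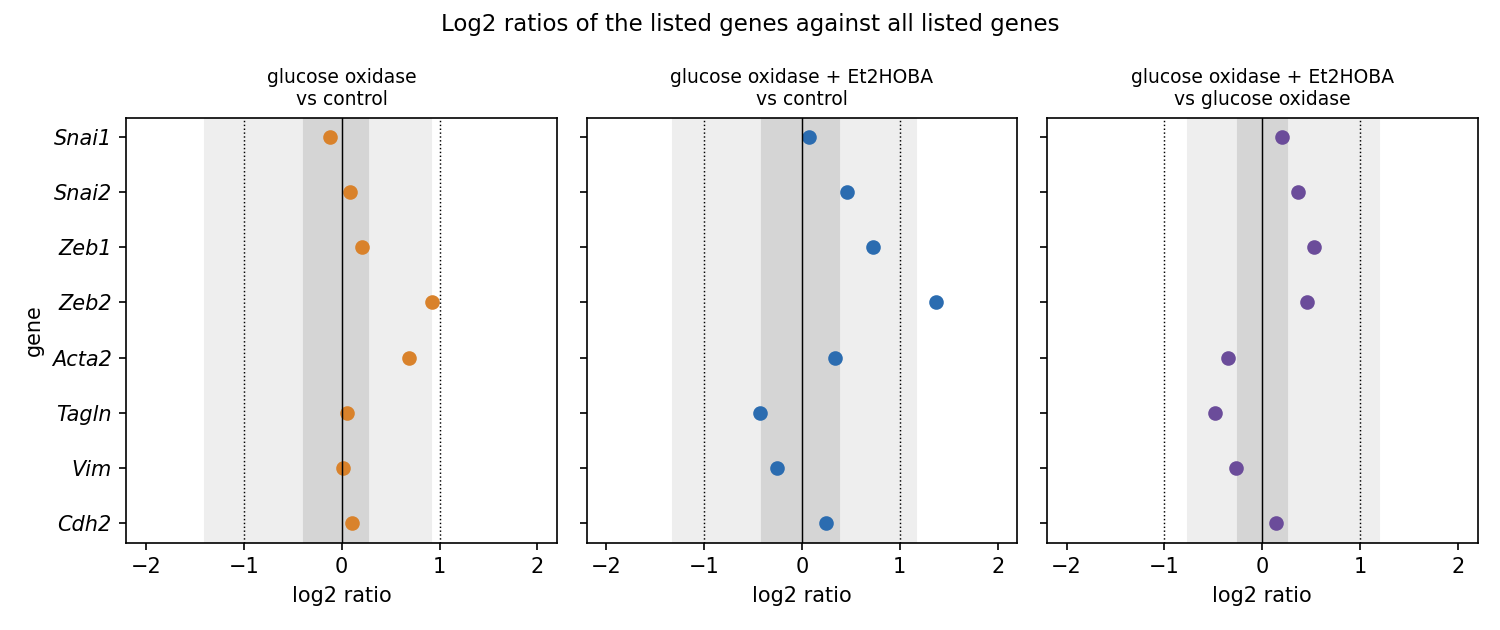
Log2 ratios of the normalized count plus 10 for the 8 listed genes in the 3 comparisons, 1 point per gene. Dark grey spans the middle 50% and light grey the middle 90% of all 18287 listed genes, dotted lines mark the limit of 1, and the one point beyond it is Zeb2 at 1.37 with both agents against control.

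For each member with at least 30 reads in every library, the 3 genes nearest in both log2 ratios against control were sought among 11335 genes with a mean normalized count of at least 100, a likeness over 3 libraries that share 1 control. The nearest to Zeb2 were Ttc7 (distance 0.0126 log2 units), Ube2e1 (0.0279) and the long noncoding RNA Dubr (0.0480). Ttc7 had 627, 1125 and 1646 reads, and 32 genes lay within 0.1 of Zeb2. The nearest to Zeb1 were Rapgef4, Pde8a and Slc22a4, with 78 genes within 0.1. Snai2 was nearest to Sec24a, Actb and Fbxl8, and 193 genes lay within 0.1. The nearest to Snai1 were Tceal9, Errfi1 and Dmxl1, those to Vim were Fech, Traf3ip1 and Pon3, and those to Cdh2 were Abi2, Szrd1 and Usp9x, with 300, 306 and 670 genes within 0.1. Zeb2 thus had the fewest close neighbours and Cdh2 the most.

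Genes around the transition were described from 7 lists, by counts past the limit and by medians. These counts are to be read beside the shares over all listed genes, 4.07% higher and 8.60% lower with glucose oxidase alone and 6.66% higher and 8.04% lower with both agents. Of 12 other transcription factors linked to such transitions 7 were listed, and Snai3, Twist2, Prrx2, Gsc and Sox9 were not. Like Zeb2, Hmga2, a chromatin protein gene, was higher in both treated libraries, with 6228, 22664 and 36195 reads and log2 ratios of 1.96 and 2.53 against control. Foxc2 had 163, 224 and 424 reads (log2 ratio 1.32 with both agents), and the other 5 were within the limit. Of 16 ligands, receptors and SMADs of the TGF-beta and activin pathway, the best known inducer of this transition, 1 was higher and 1 lower than control with glucose oxidase alone and 1 higher and 2 lower with both agents, counts near those shares. Inhba, the activin A subunit gene, had 52, 126 and 463 reads, Tgfb3 had 1450, 460 and 318, and the receptor gene Tgfbr2 had 19060, 10028 and 7089. The median of this list was -0.12 with glucose oxidase alone and 0.10 with both agents, the latter -0.05 under total-count scaling.

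Of 11 genes known to respond to TGF-beta, 4 were higher and 2 lower with glucose oxidase alone, and 6 were higher and 3 lower with both agents, where the median was 1.25. Ccn2, which encodes connective tissue growth factor, had 344, 731 and 2483 reads, and Tgif1 had 902, 3258 and 5302. These genes also respond to other signals, and Tgfbi, with 968, 350 and 336 reads, Ltbp2 (74, 24 and 20) and Edn1 (57, 37 and 19) lay on the other side. On the scale of the deposited differences 2 were higher and 1 lower with glucose oxidase alone. There 4.01% of all listed genes passed the limit in either direction, against 12.7% on the main scale.

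The contractile and cytoskeletal list, to which Acta2, Tagln and Cnn1 belong by function, had 23 of 28 genes listed, without Myocd, Acta1, Actg2, Myl9 and Tpm2. With glucose oxidase alone 1 was higher and 0 were lower, and with both agents 3 were higher and 2 lower. Fhl2 had 22, 94 and 208 reads, and Mylk, the myosin light chain kinase gene, had 10700, 5912 and 4057. The serum response factor gene Srf itself had 1390, 1214 and 1566 reads. Of 18 mesenchymal matrix and surface genes 12 were listed, with Col1a2, Fap and Thy1 among those that were not. In that list 1 was higher and 1 lower with glucose oxidase alone, and 2 were higher and 2 lower with both agents. Cd44 had 999, 2030 and 5019 reads, whereas the matrix gene Postn had 172, 33 and 26 and S100a4 (FSP1) had 332, 164 and 120. On the scale of the deposited differences 0 genes of this list passed the limit in either direction with glucose oxidase alone, where Postn was at -0.91. The share of all listed genes past the limit is lower on that scale as well (4.01%).

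In the endothelial list 14 of 17 genes had log2 ratios below 0 in each comparison with control. Of these 17 identity and junction genes, all listed, 0 were higher and 3 lower with glucose oxidase alone, and 1 was higher and 9 lower with both agents, with medians of -0.66 and -1.14. The angiopoietin receptor gene Tek had 6786, 2877 and 1688 reads and the tight junction gene Cldn5 had 50579, 25153 and 15378. Sox18 had 9014, 4854 and 2595 reads. The gene past the limit upward, named after its values were seen, was Nos3 (endothelial nitric oxide synthase), with 30246, 47041 and 74692 reads and 2.45-fold control with both agents. Emcn was also above control, at 1.26-fold and 1.47-fold, and Cdh5 was 0.870-fold and 1.14-fold. Of the relatives of Cdh2 and Vim among cadherins, catenins and intermediate filaments, 13 of 15 were listed. The lamin gene Lmnb1, with 1852, 764 and 736 reads, was the only one past the limit with glucose oxidase alone (2 genes under total-count scaling), and Gfap, with 20, 5 and 3 reads, was lower with both agents too. Des, the muscle intermediate filament gene, had 8, 9 and 9 reads, as low as Acta2 and Tagln.

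**Figure D3:**
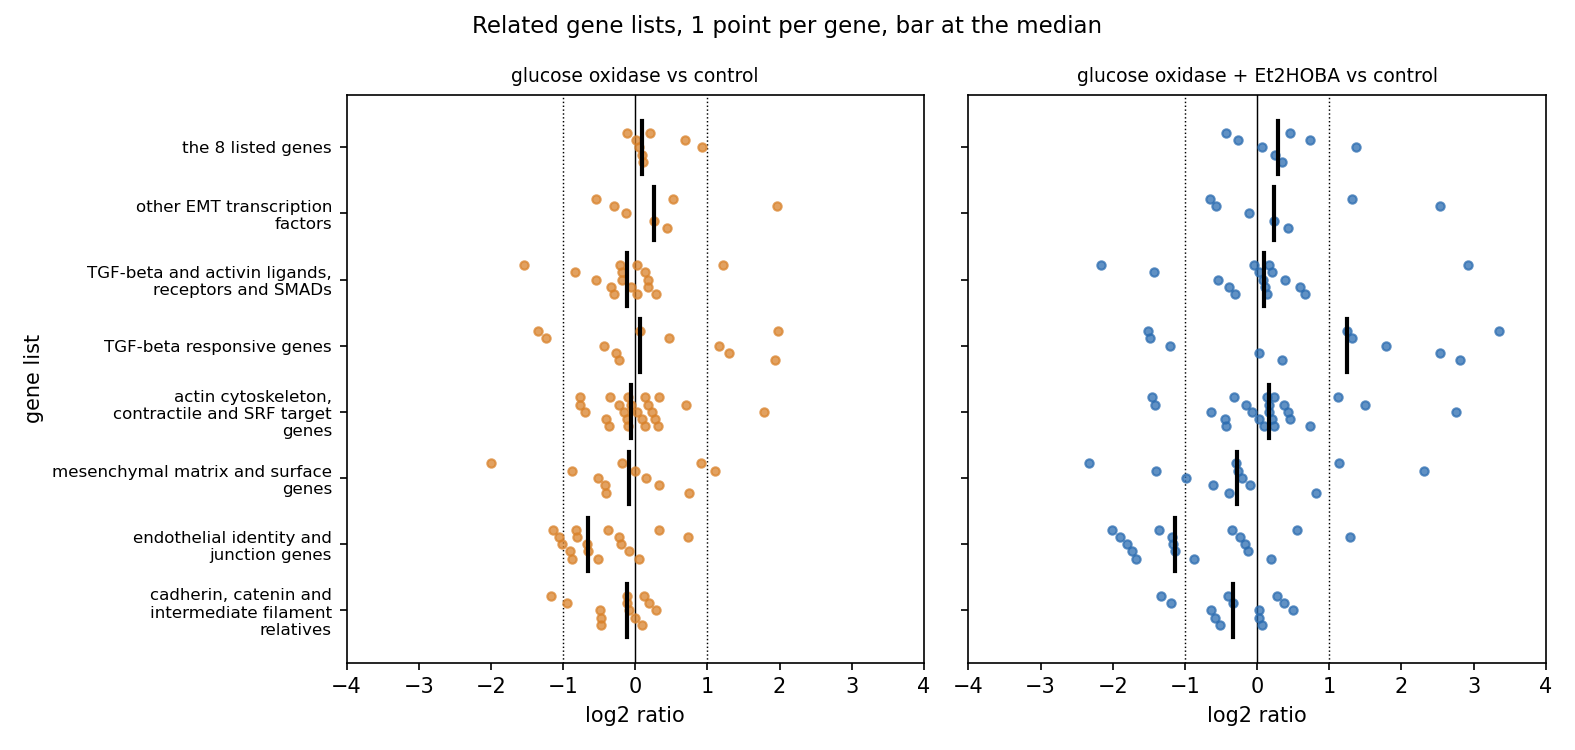
Log2 ratios against control (normalized count plus 10) for the 8 listed genes and 7 related gene lists, 1 point per listed gene, with a black bar at each list's median. The endothelial list has its median at -0.66 with glucose oxidase alone and -1.14 with both agents, while the TGF-beta responsive list has its median at 0.06 and 1.25.

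Markers of other cell types were read beside these values. All 8 endothelial markers were present, with a summed normalized level of 288097 in control, 186949 with glucose oxidase alone and 178105 with both agents. Per kb of exon the sums were 47441, 32887 and 33350, so control was highest either way and the order of the treated libraries depended on length. Of 6 smooth muscle markers, Actg2 and Myocd were not listed, Lmod1 had 1 to 6 reads and Myh11 19, 35 and 73, while Smtn, with 3517 to 4970 reads, made up nearly all of the summed level of 3695 to 4847. Of 7 fibroblast markers, Dcn, Lum and Dpt were not listed and Col3a1 had 2, 12 and 0 reads. Their summed normalized level was 1326, 2746 and 3783, and the difference lay in Pdgfra, with 107, 1325 and 2821 reads, while Pi16 had 1231, 1284 and 1085. Of 6 pericyte markers 3 were listed, with a summed level of 41.7, 123 and 137. Of 6 leukocyte markers Ptprc, Adgre1 and Cd3e were not listed. Cd68, a lysosomal gene that macrophages express strongly, had 8215, 17067 and 27799 reads, and made up nearly all of the summed level of 8146, 17767 and 26850. The other listed leukocyte markers did not follow it, as Lyz2 had 186, 76 and 86 reads and Cd79a had 6, 9 and 2. Of 5 epithelial markers only Krt8 was listed, at 1 to 6 reads. Of 4 lymphatic endothelial markers Prox1 and Pdpn were not listed, Lyve1 had 11828, 22417 and 33226 reads, and Flt4 had 7071, 6084 and 7796. Pdgfra, Cd68 and Lyve1 thus had the same order of libraries as Zeb2. So did the endothelial marker Emcn (5373, 6333 and 7936 reads), Myh11, Krt8 and the pericyte markers Pdgfrb (21, 43 and 71) and Cspg4 (2, 15 and 25). The other listed markers, Pi16, Lyz2, Cd79a and Flt4 among them, did not. The part of these markers in the Zeb2 and Zeb1 values was not tested.

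**Figure D4:**
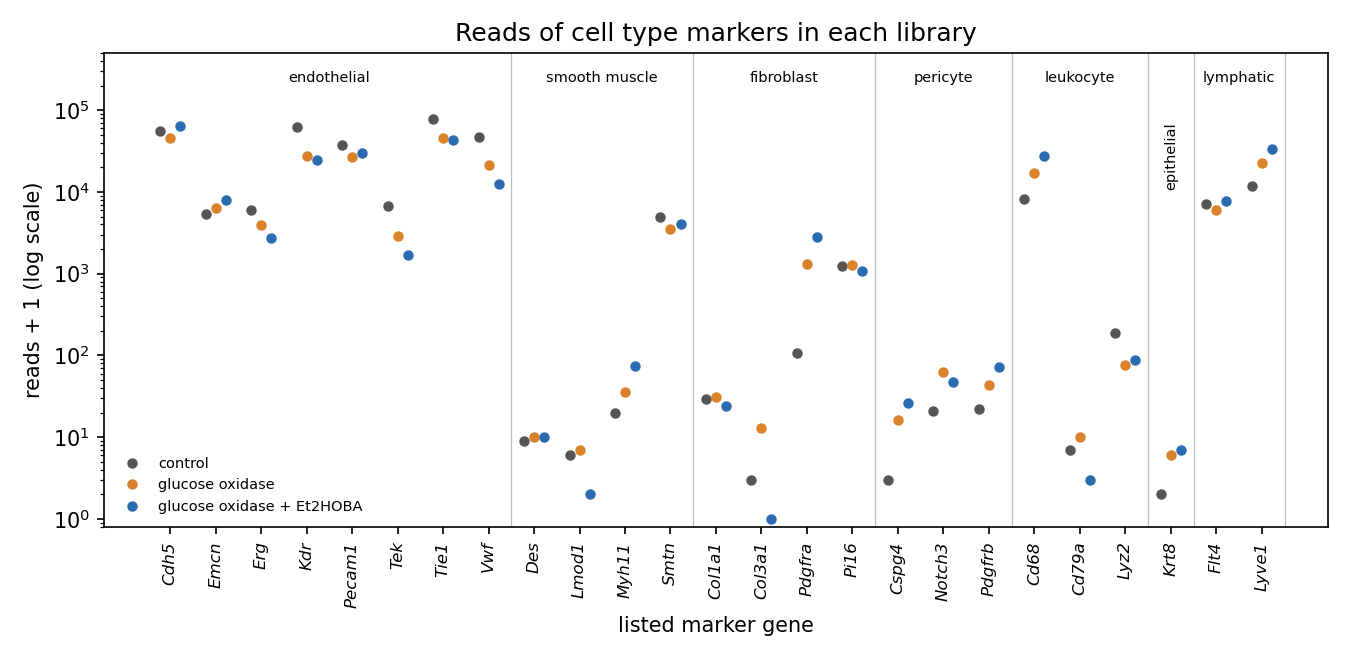
Reads plus 1 (log axis) of the listed markers of 7 cell types in the 3 libraries, 1 point per library. The endothelial markers lie between 1688 and 78258 reads, and the smooth muscle markers other than Smtn at or below 73 reads.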

How the data were processed

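Stranded libraries from polyadenylated RNA were sequenced, per the labels' protocols. STAR, featureCounts and the build mm10 are named, without versions, in the submitters' processing notes. The authors deposited read counts of the control and the glucose oxidase plus Et2HOBA libraries with log2 values and their log2 difference. For glucose oxidase against control they gave only a symbol and log2 difference. For both agents against glucose oxidase alone, log2 differences of 7 listed genes were available. The scale of the deposited differences in that comparison was fitted to these 7 and carried over to all other genes. The glucose oxidase counts were recovered. The deposited log2 values have an arcsinh-square-root form with 1 constant per library. Solving it for the missing library, over 18275 genes joined by symbol, returned whole reads (tolerance 0.01) in 100% of cases, against 3.31% after control counts were shifted by 1 read. A further 12 genes were placed by whole reads. The recovery and the ratios were tested on simulated data.

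Normalized counts used median-of-ratios scaling over the 3 libraries (factors 1.03, 0.965 and 1.04) and log2 ratios taken with a pseudocount of 10 (Python 3.11.15, scipy 1.17.1). No count model was fitted, since 1 library per group gives no spread. Depth was 35005089 to 40212212 reads over listed genes. The alternatives were a pseudocount of 1, total-count scaling, TMM scaling (edgeR 4.0.16), the deposited scale, a filter on low counts and other limits. Exon lengths and overlaps came from GENCODE release M21, with IDs matched without version for 18269 genes; Zeb2 has another version there. All 17878 IDs of the same version had the same position.

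The members, lists and limits were chosen with earlier results of these data known. From each list at most 4 genes were to be named, those with the largest ratio against control past the limit and at least 100 reads in a library, of which the text gives a part. Named outside this rule, after their values were seen, were Actb, Cdh5, Srf, Des, Gfap, Tgfbi, Ltbp2, Edn1, Pdgfra, Cd68, Lyve1 and the other markers.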

Additional observations from a re-analysis of the deposited data

How the results depend on the processing

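Zeb2 with both agents against control, the only member value past the limit, kept its direction under the other scalings and pseudocount, at log2 ratios of 1.22 to 1.38. Single genes of the related lists were not checked in this way. With a pseudocount of 1 the count of members past the limit was 1 with glucose oxidase alone (Acta2), 2 with both agents against control (Zeb2 and Tagln) and 1 between the treated libraries (Tagln), all of the added genes having 18 reads or fewer. At that setting 23.2%, 24.6% and 18.1% of all listed genes passed the limit in these comparisons, and with 8 members the counts are near those shares. At a limit of 0.5 log2 units the counts were 2, 2 and 1, and at a limit of 2 the count with both agents against control was 0. The shares of all listed genes at these other limits were not computed. Total-count scaling moved the median with both agents against control to 0.19. Of 96 recomputed ratios of single members 82 stayed within their counting error, and of the 14 that did not 11 came from total-count scaling. That scaling turned Snai1 with both agents to -0.08 and Vim with glucose oxidase alone to -0.05. In the related lists against control, genes past the limit with glucose oxidase alone became 0 higher (from 1) on the deposited scale for the TGF-beta pathway, contractile and matrix lists, 0 lower (from 1) for the matrix list, and 2 higher (from 4) and 1 lower (from 2) for the TGF-beta responsive list. On the deposited scale the share of all listed genes past the limit fell too. It went from 12.7% to 4.01% with glucose oxidase alone and from 14.7% to 9.67% with both agents. A pseudocount of 1 gave 2 matrix genes higher (from 1), and it or total-count scaling gave 2 cadherin and filament genes lower (from 1). With both agents, 1 TGF-beta responsive gene (from 3) and 1 cadherin or filament gene (from 2) was lower on the deposited scale, 4 matrix genes were lower with a pseudocount of 1 (from 2), and 1 was higher with total-count scaling (from 2). Length choice changed levels per kb and the order of Snai1, Cdh2 and Zeb1. No replicate could be left out, and no paired analysis was possible because each group has 1 library. Depth limits Acta2 and Tagln, at 4 to 18 reads.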
